A study of Danio rerio with 6 samples.

Results

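Genes of interleukin receptors and of the JAK-STAT pathway were compared between 2 sorted fractions of acute lymphoblastic leukaemia of zebrafish (ALL), in which immature lymphocytes grow as a cancer. They were taken by symbol: JAK kinases, STAT factors, their SOCS, CISH and PIAS regulators, and every symbol that starts with an interleukin number followed by r. The pattern found 55 of the 29095 genes listed, of which 52 had a count and 40 had enough counts to be tested. A further 9 rows have symbols in capitals that fit the same pattern and are given apart. The tumours were of the clonal fish strain CG2, and the sources used here give no transgene, treatment or age. Cells of tumours 1404, 1279 and 1314 were sorted into a side population (SP), by convention the cells that pump out a DNA-binding dye, and the non-side population (nonSP) that keeps it. With 1 library of each fraction from each tumour, the 6 libraries form 3 pairs, and values below are in the tumour order 1404, 1279 and 1314. The sources used here do not say whether the tumours arose independently, and the p-values apply to these pairs alone. With 2 residual degrees of freedom, the error behind each p-value was mostly shared across the tested genes, and only partly that of a gene's own pairs.

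Cytokine receptors of this family have no kinase of their own. Binding of an interleukin brings receptor chains together, and the Janus kinases (JAK) bound to them phosphorylate the receptor and then STAT proteins, which enter the nucleus and switch on genes. SOCS and CISH proteins are induced by the pathway and shut it down, and PIAS proteins attach SUMO to STATs and other nuclear factors. In lymphocytes the pathway carries signals for survival, growth and the choice of cell fate, and in mammals activating changes in IL7R, JAK1 and JAK3 are known in ALL. Receptors of the IL-1 and IL-17 families are interleukin receptors by name, but signal through other adaptors.

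The libraries held 45121124 to 55981608 counts in SP and 30213658 to 62398607 in nonSP, and levels are given as CPM, a library's counts scaled to a common total with TMM factors. Of 15770 genes tested with edgeR's quasi-likelihood test and tumour as a block, 13% were higher and 9.40% lower in SP at a Benjamini-Hochberg adjusted p below 0.05. With library totals in place of TMM factors the median log2 fold change over all these genes shifted by 1.07, so changes are relative to TMM scaling. T cell markers were found for 8 of 14 listed, and summed to 165, 1179 and 153 CPM in SP and 147, 1247 and 174 CPM in nonSP. That list includes rag1, rag2 and runx3, which are not confined to T cells. In tumour 1279 rag1 had 215 CPM in SP and 340 CPM in nonSP. B cell markers were found for 7 of 10 listed, and summed to 140, 3.93 and 70.8 CPM in SP and 133, 2.76 and 62.5 CPM in nonSP. In tumour 1279 the B cell genes blnk and ighz had 0 counts in both fractions, but cd79a had 95 counts in SP and 22 in nonSP. ebf1a had 157 and 24 counts there, and ighz was also at 1 and 0 counts in tumour 1314. pax5 had 2 and 2 counts in tumour 1279, cd79b 1 and 0, and igic1s1 0 and 1. In tumour 1314 pax5 had 1608 and 1486 counts, and cd79b 537 and 320. cd8a had 2257 counts in SP and 447 in nonSP of tumour 1279. In tumour 1314 cd8a had 0 counts in SP and 1 in nonSP, but lck had 1272 and 1054 and tcf7 had 1183 and 503. The B cell list thus sets tumour 1279 apart as the lowest, but both lists together do not split the tumours cleanly into T and B cell types. The tumours thus differed in the summed lymphoid markers in both fractions. Between the fractions 3 of 14 tested lymphoid markers passed the test. The share was 25.0% in the T cell list and 16.7% in the B cell list, against 22.4% of all tested genes. rag2, of the recombinase that builds antigen receptors, had 30.9, 69.1 and 27.7 CPM in SP and 69.1, 209 and 83.8 CPM in nonSP, and was lower in SP in each tumour (-1.45 ± 0.38, SE; edgeR adjusted p = 0.00841). runx3, a transcription factor of T cells and other blood cells, was higher in SP in each tumour (2.31 ± 0.45; edgeR adjusted p = 0.000976). blnk, an adaptor of B cell receptor signals, was higher in SP of tumours 1404 and 1314 (1.31 ± 0.46; edgeR adjusted p = 0.041). Of the B cell list 1 gene was called higher with upper-quartile factors. With RLE factors, in DESeq2, in limma voom and with any 1 tumour left out, 0 were. Of the T cell list 0 genes were called lower with library totals, without tumour 1279 or without tumour 1314. In that list 1 gene was called higher without each tumour in turn. The part of these cell markers in the results below was not tested.

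Most genes of the pathway did not pass the test between the fractions. Of the 40 tested, 3 rose in SP (il10ra, il17rd and il6r) and 2 fell (socs3b and il10rb), or 12.5% past the threshold in either direction, against 22.4% of all tested genes. The share that rose was 7.50%, against a background of 13%, and the share that fell was 5%, against 9.40%. Of the 5, 4 are receptor chains and socs3b is an inhibitor, and none is a kinase or STAT factor. The 40 had a median log2 fold change of 0.35, against 0.09 over the whole table. Values above 0 were found in 26 of the 40, against 53.5% of all tested genes, and 7 of the 40 had an absolute value over 1 (17.5%, against 34.2% of all). With library totals 27 rose and 0 fell (29 at an unadjusted p below 0.05, all higher), where 50.8% of all tested genes rose and 1.76% fell. Without tumour 1279 (43 tested) il10ra alone passed, with 4 higher and 3 lower at an unadjusted p below 0.05. Without tumour 1314 (45 tested) il10ra was again the 1 that rose, both of the falls above were lost, and il1rl1, which is not among the 40, fell. With the tumour block removed 0 passed, and 0 had an unadjusted p below 0.05 in edgeR.

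**Figure D1:**
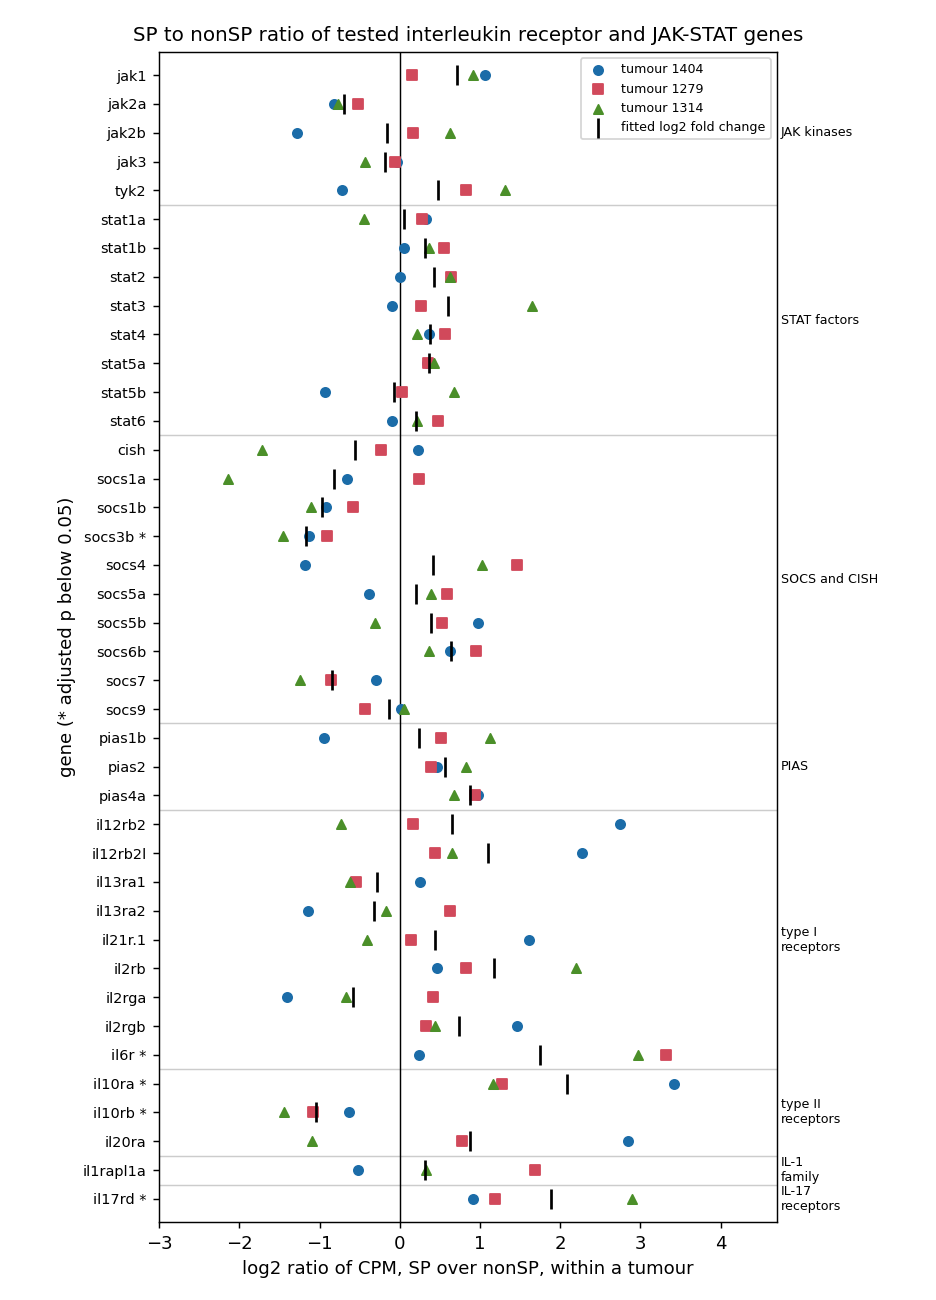
Each row is a tested gene, grouped by class, and the horizontal axis is the log2 ratio of SP over nonSP CPM. Points are the 3 tumours, black ticks the fitted log2 fold change, and an asterisk marks the 5 genes past the threshold. The points of stat5a and jak2a lie close together, while receptor genes such as il12rb2, il20ra and il6r spread widely between tumours.

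The 5 JAK genes, which encode the kinases, gave 0 calls in edgeR, DESeq2 and limma voom, with 0 at an unadjusted p below 0.05 in edgeR and 1 in each of the other tools. In edgeR 22.4% of all 15770 tested genes were called, and 5698 had an unadjusted p below 0.05. jak1, which serves most receptors of this family, had 85.0, 70.6 and 33.6 CPM in SP and 40.7, 63.5 and 17.8 CPM in nonSP. It was higher in SP in each tumour, with overlap between the groups, and stood at a log2 fold change of 0.71 ± 0.38 (SE, n = 3 pairs, and so for every later ±, with edgeR adjusted p = 0.177). jak2a had 45.4, 101 and 29.6 CPM in SP and 80.5, 144 and 50.4 CPM in nonSP. It was lower in SP in each tumour by similar log2 ratios of -0.82, -0.52 and -0.77 (-0.70 ± 0.37; edgeR adjusted p = 0.173), but stood at 0.37 with library totals. Its paralogue jak2b had 7.96, 12.3 and 12.5 CPM in SP and 19.4, 11 and 8.10 CPM in nonSP. The difference between the log2 ratios of jak2a and jak2b changed sign between tumours, at 0.46, -0.68 and -1.39. jak3, the partner of the common gamma chain, had 19.4, 58.9 and 37.9 CPM in SP and 20, 61.3 and 51.1 CPM in nonSP, nearly equal within tumours 1404 and 1279 (-0.18 ± 0.36; edgeR adjusted p = 0.767, and 0.90 with library totals). tyk2, which serves interferon and IL-12 receptors, was lower in SP of tumour 1404 and higher in SP of both others, with log2 ratios of -0.72, 0.82 and 1.31 (0.48 ± 0.41; edgeR adjusted p = 0.418).

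The 8 STAT genes encode the factors that carry the signal to the nucleus. None passed the test in edgeR, DESeq2 or limma voom, and 0 had an unadjusted p below 0.05 in any of the 3 tools. Over all 15770 tested genes 22.4% were called in edgeR, and 5698 had an unadjusted p below 0.05. Their log2 fold changes ran between -0.07 (stat5b) and 0.60 (stat3), with a median of 0.35, and each had an SE of 0.35 to 0.40. stat5a, a mediator of IL-2 and IL-7 signals, had log2 ratios of 0.34, 0.35 and 0.43, with 11.7, 24.1 and 29.9 CPM in SP and 9.21, 19.0 and 22.2 CPM in nonSP (0.37 ± 0.35; edgeR adjusted p = 0.471). Its paralogue stat5b had log2 ratios of -0.93, 0.03 and 0.67, so that the 3 tumours lay on different sides of 0. stat3, which mediates IL-6 and IL-10 signals, had 12.6, 31.2 and 16.5 CPM in SP and 13.5, 25.8 and 5.23 CPM in nonSP, and tumour 1314 alone had a log2 ratio over 1 (1.65). stat4, which responds to IL-12, had 10.5, 128 and 27.7 CPM in SP and 8.15, 86.4 and 23.9 CPM in nonSP. Its fractions differed little within a tumour (0.38 ± 0.37; edgeR adjusted p = 0.487), while tumour 1279 stood far above the others. The interferon mediators stat1a, stat1b and stat2 stood at 0.05 ± 0.38, 0.32 ± 0.40 and 0.43 ± 0.36, and stat6, which mediates IL-4 and IL-13 signals, at 0.20 ± 0.36. The value of stat1a was -0.03 with RLE factors and -0.01 with upper-quartile factors. All 8 STAT genes rose with library totals, where 50.8% of all tested genes rose.

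**Figure D2:**
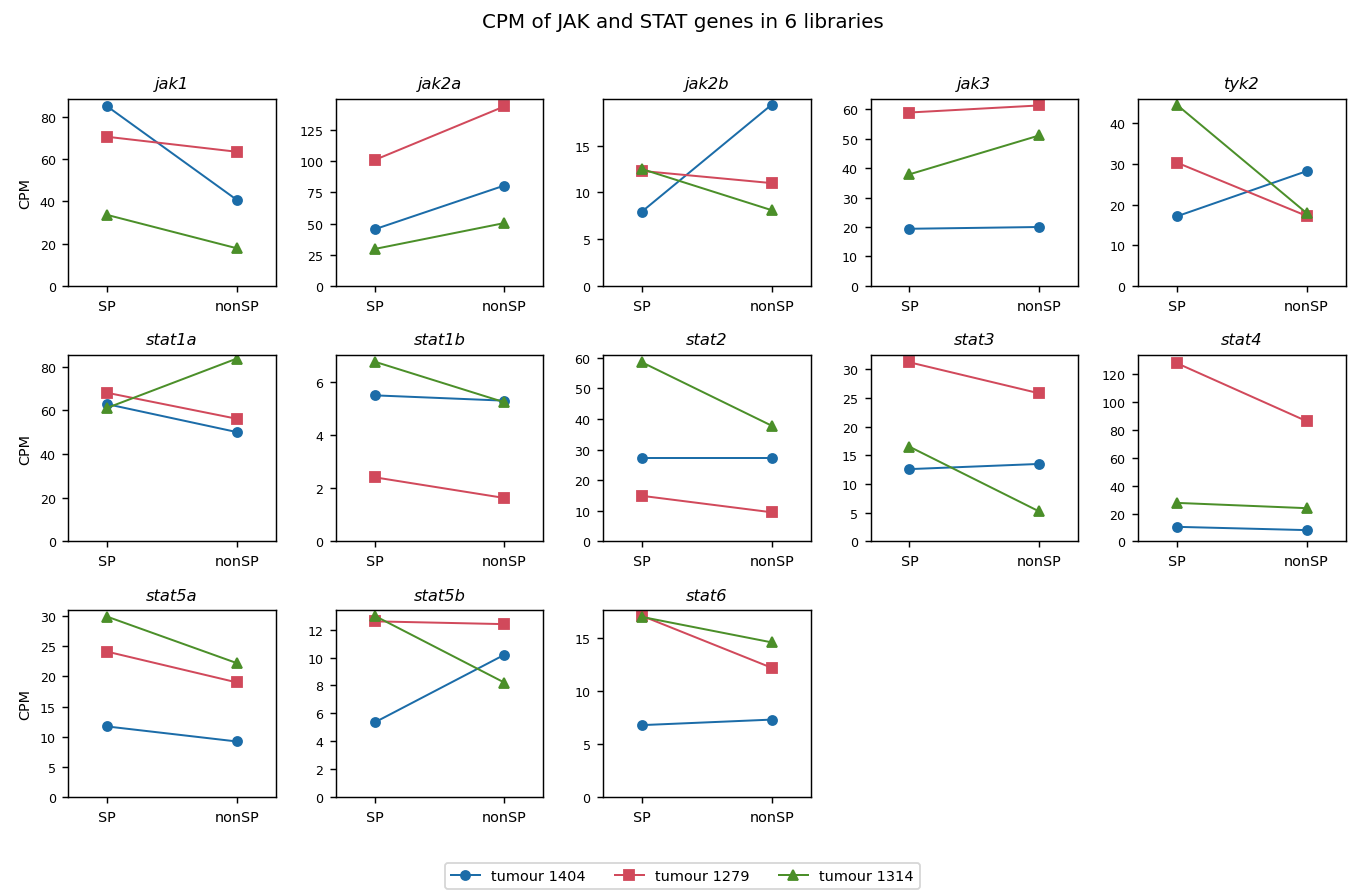
Each panel plots the CPM of a JAK or STAT gene, with SP on the left and nonSP on the right, and a line joins both fractions of a tumour. No lines cross in the panels of jak2a, jak3, stat2, stat4 and stat5a, with stat4 at 128 CPM in SP and 86.4 CPM in nonSP of tumour 1279 and no more than 27.7 CPM elsewhere.

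Among 13 genes of the SOCS and CISH inhibitors, 10 were tested, of which socs3b fell and 0 rose in edgeR. At an unadjusted p below 0.05 edgeR had 0 higher and 1 lower, and DESeq2 and limma voom called 0 higher. Of all 15770 tested genes 9.40% fell and 13% rose in edgeR, so 1 fall among 10 is close to the background. socs3b, whose mammalian counterpart blocks signals from IL-6 family receptors, had 19.0, 17.7 and 2.42 CPM in SP and 41.5, 33.3 and 6.73 CPM in nonSP. It was lower in SP in each tumour, with overlap between the groups since tumour 1314 was low in both fractions. Its log2 fold change was -1.17 ± 0.36 (edgeR adjusted p = 0.0222), or 2.25-fold lower, with log2 ratios of -1.13, -0.91 and -1.46. The fold was close to this without tumour 1279 (-1.28, edgeR adjusted p = 0.0786) and without tumour 1314 (-1.02, 0.189), where it did not pass, and was -0.10 with library totals. The other inhibitors lay on both sides of 0 and did not pass the test. socs1b and socs7 were lower in SP in all 3 tumours (-0.97 ± 0.52 and -0.84 ± 0.54), and socs6b was higher in all 3 (0.64 ± 0.36), with edgeR adjusted p-values of 0.181, 0.267 and 0.207. With library totals socs1b and socs7 stood at 0.07 and 0.15. socs1a had 19.0, 46.8 and 0.678 CPM in SP and 29.9, 39.7 and 3.11 CPM in nonSP (-0.82 ± 0.43; edgeR adjusted p = 0.166, and 0.24 with library totals). cish, a target of STAT5 in mammals, had log2 ratios of 0.23, -0.23 and -1.72. socs3a had 0 counts in each library.

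Of 4 PIAS genes 3 were tested and 0 were called in edgeR, DESeq2 and limma voom, where edgeR called 22.4% of all tested genes. In each tool 1 PIAS gene had an unadjusted p below 0.05. That gene was pias4a, which had 8.27, 24.0 and 26 CPM in SP and 4.18, 12.5 and 16.3 CPM in nonSP (0.87 ± 0.36; edgeR adjusted p = 0.0801), with ratios of 0.98, 0.94 and 0.67. pias1b stood at 0.24 ± 0.41, with tumour 1404 lower in SP and both others higher. pias2 had 13.6, 13.9 and 16.7 CPM in SP and 9.84, 10.5 and 9.42 CPM in nonSP. Its groups did not overlap, although it stood at only 0.56 ± 0.36 (edgeR adjusted p = 0.267). It was 1 of 2 tested genes of the family with all SP libraries above all nonSP libraries (5%, against 8.64% of all tested genes), the other being il12rb2l. il10rb alone had all SP libraries below all nonSP libraries (2.5%, against 6.60%).

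Of 25 receptor chains 14 were tested, of which 3 rose and 1 fell (21.4% and 7.14%, against 13% and 9.40% of all tested genes). The genes named il10ra and il10rb, for the chains of the IL-10 receptor, both passed the test, in opposite directions. The chains were identified by symbol alone. Whether il10rb or crfb4, a receptor gene of the lists below, is the shared chain was not tested. crfb4 had log2 ratios of -0.64, 0.26 and -0.67 and was not called (-0.36 ± 0.38; edgeR adjusted p = 0.523). il10ra, named for the chain specific to IL-10, had 2.86, 0.462 and 2.41 CPM in SP and 0.235, 0.169 and 1.06 CPM in nonSP. It was higher in SP in each tumour, with an overlap between the groups, and rose by 2.09 ± 0.61 (edgeR adjusted p = 0.0158), or 4.27-fold. Tumour 1404 had the widest gap, with 193 counts in SP and 10 in nonSP, and without it the value was 1.2 (edgeR adjusted p = 0.204). il10rb, named for the chain that the receptors of IL-10 and IL-22 share, had 107, 109 and 58.1 CPM in SP and 166, 231 and 158 CPM in nonSP. All SP libraries lay below all nonSP libraries, and il10rb changed by -1.05 ± 0.38 (edgeR adjusted p = 0.0465), or 2.07-fold lower. It did not pass without tumour 1279 (-1.02, edgeR adjusted p = 0.205) or without tumour 1314 (-0.85, 0.333), nor with no filter on low counts (-0.98, 0.0573), and with library totals it stood at 0.03. The log2 ratio of il10rb minus that of il10ra was -4.04, -2.36 and -2.6 in the 3 tumours, a difference within each pair of libraries that was not tested.

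il6r, the chain that binds IL-6 before it joins the common signalling chain gp130, had 8.72, 0.324 and 1.11 CPM in SP and 7.35, 0 and 0.110 CPM in nonSP. It had 588, 21 and 106 counts in SP and 313, 0 and 5 counts in nonSP. The fractions of tumour 1404, where the level was far above the other tumours, were nearly equal (log2 ratio 0.24), and the gap came from tumours 1279 and 1314 (3.32 and 2.97). il6r rose by 1.75 ± 0.63 (edgeR adjusted p = 0.0475). It was at 1.47 without tumour 1279 (edgeR adjusted p = 0.145) and 0.90 without tumour 1314 (0.403), neither past the threshold, and at 3.56 without tumour 1404 (0.00742). It also missed the threshold with RLE factors (1.67, edgeR adjusted p = 0.0649), with upper-quartile factors (1.69, 0.0671) and in limma voom (1.34, adjusted p = 0.105).

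il17rd, a member of the IL-17 receptor family known to restrain fibroblast growth factor signals in zebrafish, had 0.297, 0.817 and 2.02 CPM in SP and 0.141, 0.339 and 0.243 CPM in nonSP. It was higher in SP in each tumour, the most in tumour 1314, where it had 194 counts in SP and 11 in nonSP. It rose by 1.89 ± 0.65 (edgeR adjusted p = 0.039), or 3.70-fold. The value was 2.2 without tumour 1279 (edgeR adjusted p = 0.0677) and 1.17 without tumour 1314 (0.424), where it did not pass. It missed the threshold narrowly with RLE factors (1.80, edgeR adjusted p = 0.0525) and upper-quartile factors (1.83, 0.0519). A row named IL17RD (1 of 2) in capitals ran the other way, with 165, 115 and 479 counts in SP and 287, 176 and 1057 counts in nonSP (-2.06 ± 0.39; edgeR adjusted p = 0.000875). Reads of such copies may be split between them, so both values are uncertain.

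**Figure D3:**
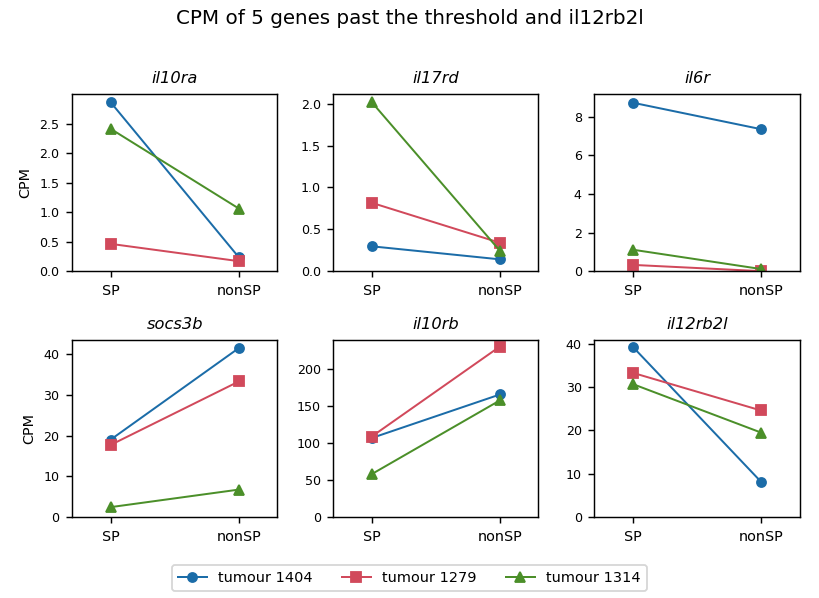
Panels plot the CPM of the 5 genes past the threshold and of il12rb2l, with SP on the left, nonSP on the right and a line for each tumour. il10rb and socs3b are lower in SP in each tumour, and il6r in tumour 1404 is far above both other tumours in either fraction.

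The remaining type I receptor chains did not pass the test. il12rb2l, a gene named for its likeness to the IL-12 receptor beta 2 chain, came closest, with 39.3, 33.3 and 30.7 CPM in SP and 8.13, 24.6 and 19.5 CPM in nonSP. All SP libraries lay above all nonSP libraries (1.1 ± 0.41; edgeR adjusted p = 0.0517), and it passed in limma voom (1.12, adjusted p = 0.0377), without the filter (1.18, edgeR adjusted p = 0.0222) and with the stricter filter (1.1, 0.0339). Without tumour 1404 it stood at 0.43 (edgeR adjusted p = 0.45). Both paralogues of the common gamma chain, shared by the receptors of IL-2, IL-4, IL-7, IL-15 and IL-21, were present. il2rga had 16.6, 7.75 and 3.62 CPM in SP and 44.1, 5.81 and 5.80 CPM in nonSP (-0.58 ± 0.40; edgeR adjusted p = 0.308, and 0.50 with library totals). il2rgb had 8.78, 16.4 and 4.59 CPM in SP and 3.17, 13 and 3.38 CPM in nonSP (0.74 ± 0.39; edgeR adjusted p = 0.171). In tumour 1404 the log2 ratios of the pair were -1.41 for il2rga and 1.46 for il2rgb, while in tumour 1279 they were nearly equal (0.41 and 0.33). il2rb, the beta chain of the IL-2 and IL-15 receptors, had 40, 60 and 22 counts in SP and 18, 9 and 1 counts in nonSP (1.17 ± 0.68; edgeR adjusted p = 0.223). il21r.1 had log2 ratios of 1.61, 0.14 and -0.41, and il12rb2 of 2.75, 0.16 and -0.73, so in both the direction rested on tumour 1404. The IL-13 receptor genes il13ra1 and il13ra2 stood at -0.29 ± 0.45 and -0.32 ± 0.52.

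Some receptor genes were too low or too unevenly present to test. il7r, the chain that carries the survival signal of IL-7 to immature lymphocytes, had 7, 1619 and 3 counts in SP and 0, 339 and 1 counts in nonSP. il23r, a receptor chain of IL-23, had 2, 984 and 0 counts in SP and 1, 165 and 0 counts in nonSP. Both were thus nearly absent outside tumour 1279, where their log2 ratios of SP over nonSP were 0.38 and 0.70. Of the other 13 untested genes 10 had a count, with at most 40 in any library, and 3 had none (socs3a, il11ra and il17ra2). il1rl1, of the IL-1 receptor family, had 10, 3 and 1 counts in SP and 36, 10 and 1 counts in nonSP. Where it entered the test it fell, with no filter (-2.61, edgeR adjusted p = 0.0308) and without tumour 1314 (-2.9, 0.0225). il21r.2 had 23, 39 and 8 counts in SP and 8, 1 and 1 counts in nonSP, and il4r.1 had 12, 4 and 21 counts in SP and 5, 0 and 4 counts in nonSP. il20ra and il1rapl1a were tested at low level (0.87 ± 0.84 and 0.32 ± 0.73), with wide errors and no call. Among the rows in capitals 5 of 9 were tested, of which IL17RC rose and IL17RD (1 of 2) fell. With them 4 of 45 rose and 3 fell, or 8.89% and 6.67%, against 13% and 9.40% of all tested genes. IL17RC had 13, 40 and 21 counts in SP and 1, 2 and 0 counts in nonSP, a ratio of 11.4 with a 95% exact interval of 3.76 to 56.6 that covers counting error alone.

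Many of these genes differed between the tumours. In an F test of the tumour block in the same edgeR fit, added after seeing the data, 25 of the 40 genes passed an adjusted p of 0.05 (62.5%, against 53.2% of all tested genes). This test takes both fractions of a tumour as its libraries, so it describes these 3 tumours. In 28 of the 40 both libraries of a tumour lay above or below the other 4 libraries (70.0%, against 63.6%). Tumour 1279 stood above the others in 10 of the 40 (25.0%, against 11.4% of all tested genes), among them stat4, stat3, jak2a, jak3, socs1a, il21r.1 and il12rb2. It stood below the others in 6, among them stat2 and stat1b, a share close to the 15.1% of all tested genes. The untested il7r and il23r, given above, were likewise highest in tumour 1279. So was the sum of the T cell list, which includes rag1, rag2 and runx3, and whose part in these levels was not tested. socs1a was low in tumour 1314 (0.678 CPM in SP and 3.11 CPM in nonSP), and socs7 was nearly absent in tumour 1279 (3 counts in SP and 2 in nonSP) but had 196 and 67 counts in SP of tumours 1404 and 1314 and 153 and 77 counts in their nonSP. il2rga, il6r, il13ra1, il13ra2, cish and socs7 were highest in tumour 1404 in both fractions, a share close to the 15.2% of all tested genes.

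**Figure D4:**
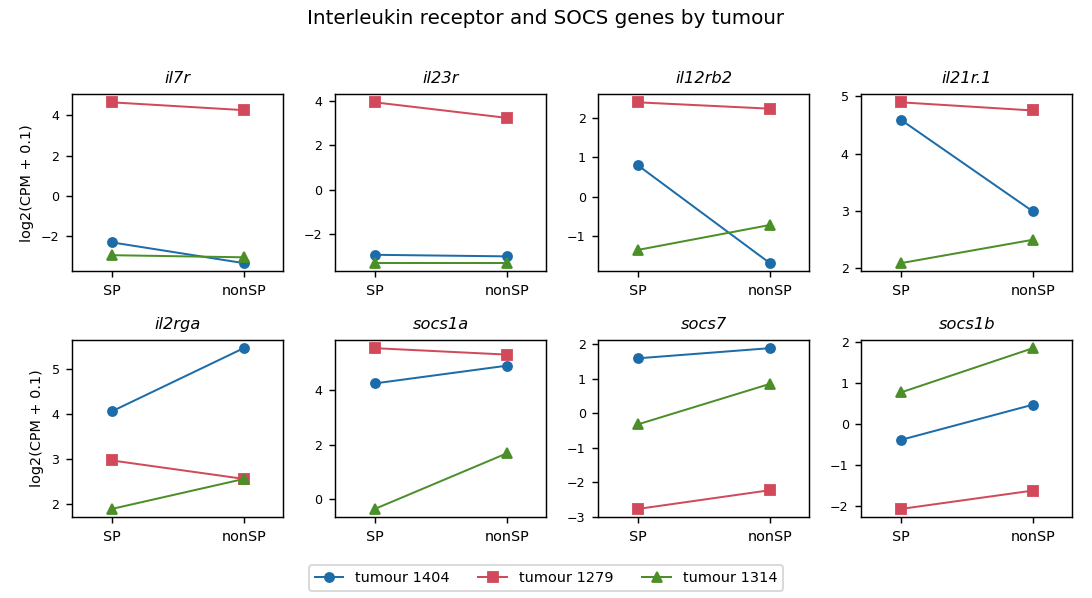
Panels plot log2(CPM + 0.1) of 8 genes, with SP on the left, nonSP on the right and a line for each tumour. il7r and il23r are high in both fractions of tumour 1279 alone (25.0 and 15.2 CPM in SP, 19.1 and 9.31 CPM in nonSP).

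In 20 of the 40 genes the direction between the fractions differed between tumours. In 9 of the 40 the SP library was lower in tumour 1404 and higher in both others (22.5%, against 10.4% of all tested genes): jak2b, tyk2, stat3, stat5b, stat6, socs4, socs5a, pias1b and il1rapl1a. In stat3 and stat6 the log2 ratio of tumour 1404 was only -0.10. SP was lower in tumour 1314 alone in 5 genes (12.5%, against 8.98%) and higher in tumour 1279 alone in 3 (7.50%, against 10.6%). SP higher in tumour 1404 alone was seen in cish and il13ra1 (5%, against 5.99%). The same direction in all 3 tumours was seen in 20 (14 higher and 6 lower in SP), or 50%, against 55.1% of all tested genes. The range of the log2 ratio between tumours had a median of 1.21 in the 40 and of 1.21 in all tested genes, and of 0.64 in the 13 JAK and STAT genes.

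Some of these genes lie side by side in the genome. By the gene order of RefSeq on the assembly GRCz12tu, in which 52 of the 55 symbols were matched, stat4 is next to stat1b, stat3 next to stat5a, il23r next to il12rb2 and il21r.2 next to il21r.1. Neighbours did not always share a pattern. stat4 was highest in tumour 1279, while stat1b was lowest there, with 5.51, 2.42 and 6.78 CPM in SP and 5.31, 1.64 and 5.25 CPM in nonSP. il23r and il12rb2 were both highest in tumour 1279, where il12rb2 had 5.12 CPM in SP and 4.57 CPM in nonSP.

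Other genes of the pathway were read from 4 lists. Of 40 cytokine ligand genes listed, 12 were tested, of which 2 rose and 1 fell (25.0% called, against 22.4% of all tested genes), with a median log2 fold change of 0.64. il13, a cytokine of type 2 immune responses that signals through STAT6, had 41, 15 and 8 counts in SP and 272, 29 and 66 counts in nonSP. Its levels were 0.608, 0.231 and 0.0835 CPM in SP and 6.39, 1.64 and 1.46 CPM in nonSP, so that the groups did not overlap. It fell by 3.41 ± 0.53 in log2 units (edgeR adjusted p = 9.41e-05), or 10.7-fold, with log2 ratios of -3.32, -2.65 and -3.64, and at -2.37 it also passed with library totals. il15l, an IL-15-like gene, had 31.6, 224 and 22.4 CPM in SP and 15.5, 81.9 and 13.9 CPM in nonSP (1.05 ± 0.38; edgeR adjusted p = 0.0463). m17, an IL-6 family cytokine of fish, had 74, 139 and 2 counts in SP and 11, 7 and 0 counts in nonSP (2.28 ± 0.70; edgeR adjusted p = 0.0225). il15l did not pass when any 1 tumour was left out (0.87 to 1.24, with edgeR adjusted p-values of 0.0535 to 0.228) or with RLE (0.0694) or upper-quartile factors (0.052), and m17 not without tumour 1404 (2.26, 0.0949). il4, il6 and il10 had 0 to 13 counts in a library.

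Of 38 other cytokine receptor genes listed, 22 were tested, of which 5 rose and 0 fell (22.7% called, against 22.4% of all tested genes), with a median of 0.72. 1 was lower at an unadjusted p below 0.05 in edgeR, and DESeq2 and limma voom likewise called 0 lower. il6st, which encodes gp130, the signalling partner of il6r, had 178, 36.1 and 19.9 CPM in SP and 74.4, 18 and 10.6 CPM in nonSP. It was higher in SP by similar ratios of 1.26, 1 and 0.90 (1.06 ± 0.37; edgeR adjusted p = 0.0425). lifra, which pairs with gp130, rose by 1.94 ± 0.53, and csf2rb, the common beta chain of the IL-3 and IL-5 receptor group in mammals, by 1.17 ± 0.36. kitb, a receptor of the KIT type that carries its own kinase, rose by 2.05 ± 0.56. epor, the erythropoietin receptor gene, also passed the test with 18, 15 and 17 counts in SP and 2, 0 and 0 counts in nonSP, a ratio of 11.6 with a 95% exact interval of 3.04 to 98.2 for counting error. epor also stands among the erythroid markers below. Neither il6st (0.84 to 1.14, with edgeR adjusted p-values of 0.107 to 0.171) nor csf2rb (0.9 to 1.3, 0.0714 to 0.099) passed when any 1 tumour was left out, and il6st also missed with RLE factors (0.97, edgeR adjusted p = 0.065). lifra (1.95 and 1.3) and epor did not pass without tumour 1279 or without tumour 1314. The fitted value of epor, 3.56 on the log2 scale, was 6.42 without tumour 1404, where nonSP is at 0, and it did not pass in DESeq2 (3.84, adjusted p = 0.054). kitb did not pass without tumour 1404 (1.67).

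Of 25 phosphatase and adaptor genes listed, 21 were tested, of which 2 rose and 2 fell (19.0% called, against 22.4% of all tested genes), with a median of 0.17. stam and stam2, adaptors that bind JAKs and sort receptors on endosomes, rose by 1.5 ± 0.37 and 1.60 ± 0.37 (edgeR adjusted p = 0.00644 and 0.00408). stam had 22.4, 18.2 and 10.4 CPM in SP and 6.20, 8.58 and 3.55 CPM in nonSP, with no overlap between the groups. ptprc, the gene of CD45, a phosphatase that can restrain JAKs, had 66.1, 25.6 and 49.1 CPM in SP and 157, 50.9 and 111 CPM in nonSP (-1.14 ± 0.37; edgeR adjusted p = 0.0302). The adaptor gene shc1 changed by -1.16 ± 0.37, and with library totals ptprc and shc1 stood at -0.07 and -0.08. Without tumour 1279 (-1.2 and -0.96) and without tumour 1314 (-1.12 and -1.36) neither passed.

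Of 30 genes listed as targets of STAT factors in mammals or interferon responses, 22 were tested, of which 4 rose and 1 fell (22.7% called, against 22.4% of all tested genes), with a median of 0.29. bcl6a, a transcriptional repressor gene, had 439, 121 and 239 CPM in SP and 60.6, 75.2 and 32.2 CPM in nonSP. The groups did not overlap, and bcl6a rose by 2.18 ± 0.46 (edgeR adjusted p = 0.00179). Its paralogue bcl6ab rose by 1.2 ± 0.42, bcl2a, an inhibitor of apoptosis, by 1.41 ± 0.47, and hif1al by 1.19 ± 0.39. isg15, a ubiquitin-like protein gene induced by interferon, had 6.02, 15.4 and 23.4 CPM in SP and 23.7, 22.4 and 56.5 CPM in nonSP (-1.26 ± 0.38; edgeR adjusted p = 0.0209). pim1 and pim2, kinase genes known as STAT5 targets, stood at -0.43 ± 0.39 and -0.39 ± 0.41, higher in SP of tumour 1404 and lower in SP of both others. bcl6ab (0.61 to 1.61), bcl2a (1.2 to 1.71) and hif1al (0.69 to 1.42) did not pass when any 1 tumour was left out. bcl6ab (0.0594) and hif1al (0.0512) also missed the threshold with RLE factors, and bcl6ab (0.0528) with upper-quartile factors. isg15 did not pass without tumour 1314 (-1.26) or with library totals (-0.19). Of 17 genes of these lists past the threshold, il13, stam, stam2 and bcl6a, or 4, also passed without each tumour in turn. Of the 5 interleukin receptor and JAK-STAT genes past the threshold 0 did so. The same share over all called genes was not computed, so these counts cannot show whether such loss is particular to these genes.

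**Figure D5:**
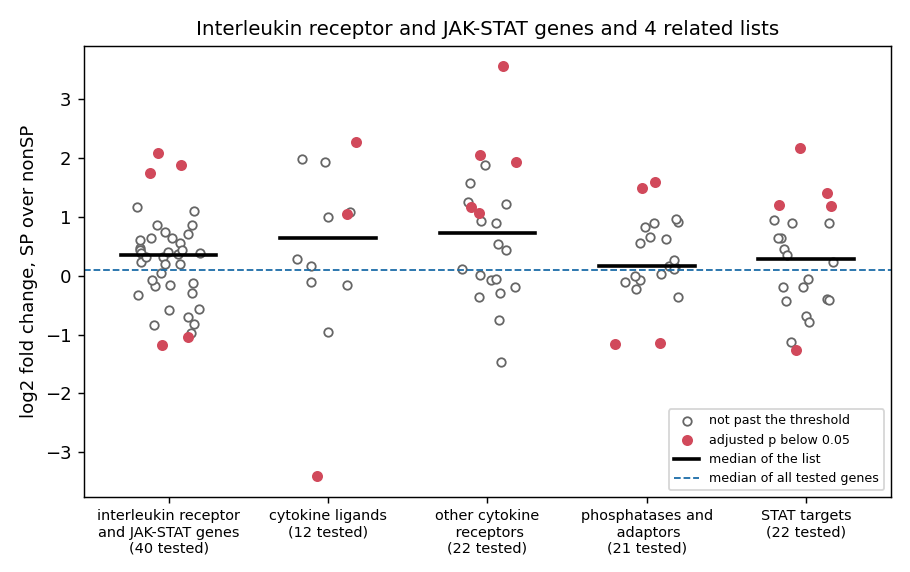
Each point is the fitted log2 fold change of SP over nonSP for a tested gene, by list, with filled points past the threshold and black bars at list medians. The medians lie at 0.35, 0.64, 0.72, 0.17 and 0.29 from left to right, and the dashed line marks 0.09, the median of all tested genes.

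Markers of other cells were low in most cases, and some were higher in SP. Their relation to the results above was not tested. Neutrophil markers were found for 6 of 8 listed, of which 1 of 3 tested rose (mpx). mpx had 37.3, 3.55 and 3.12 CPM in SP and 2.77, 0.846 and 0.176 CPM in nonSP. Its groups did not overlap (3.33 ± 0.47; edgeR adjusted p = 4.42e-05). The neutrophil markers summed to 391, 17.7 and 14.2 CPM in SP and 163, 15 and 5.03 CPM in nonSP. Tumour 1404 stood out through mmp9 (353 CPM in SP and 160 CPM in nonSP), which did not pass (edgeR adjusted p = 0.122). lyz had 0 to 2 counts in 5 libraries and 24 in nonSP of tumour 1279. Macrophage markers, found for 8 of 8, summed to 0.282 to 0.709 CPM in SP and 0.110 to 0.540 CPM in nonSP. il6r and il10ra are known in myeloid cells as well as lymphocytes, and the part of such cells in their rise was not tested. NK-like markers, found for 4 of 7 and including il2rb, summed to at most 1.09 CPM in SP and 1.52 CPM in nonSP. Erythroid markers (5 of 8 found, 2 of 3 tested higher) summed to 5.84 to 22 CPM in SP and 2.07 to 11.3 CPM in nonSP. The untested hbaa1 ran the other way, with 0, 3 and 0 counts in SP and 21, 9 and 0 counts in nonSP. gata1a, also untested, had 3, 0 and 0 counts in SP and 2, 2 and 1 counts in nonSP. Without tumour 1314, of 4 erythroid genes tested 0 were called higher and 1 lower. Fibroblast markers (5 of 5 found, 2 of 2 tested higher) summed to 3.79 to 24.7 CPM in SP and 0.419 to 4.4 CPM in nonSP, carried by dcn and lum. The collagen gene col1a1a had 1 to 12 counts in SP and 1 to 3 in nonSP, and was not tested. Muscle markers (6 of 6 found, 1 of 2 tested higher) summed to 30.8 to 58.4 CPM in SP and 3.05 to 24.0 CPM in nonSP, nearly all of it neb (30, 57.7 and 42.3 CPM in SP). acta1b did not pass (-0.87 ± 0.60; edgeR adjusted p = 0.305), and ckma, ckmb and tnnt3a had 0 to 3 counts in a library. Thrombocyte markers, with itga2b and mpl at 0 in all libraries, and endothelial markers gave no call. In sorted bulk samples fewer cells of a type and less RNA per cell cannot be told apart.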

How the data were processed

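Per the labels' protocols, tumours were removed, their cells sorted by flow cytometry, and RNA taken up in Trizol for Illumina libraries. The authors deposited raw counts per gene symbol, 1 table per library. Per the submitters' processing notes the tools included STAR 2.5.1b, featureCounts 1.28.1, Cufflinks 2.2.1, DESeq 1.30.0 and edgeR 3.20.7 on GRCz10. The sources used here give neither their roles nor an annotation or strand setting, so overlapping, antisense and near-identical genes cannot be told apart. Without gene lengths of that build, CPM was not corrected for length. The marker sums, and the parts of genes such as neb in them, therefore depend on gene length as well as on level.

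Groups and tumour numbers come from the sample titles. Both fractions of a number come from the same tumour, and their deviations from the group means correlated at 0.753, 0.839 and 0.818 (-0.274 to -0.565 between tumours). The negative values follow in part from taking each group mean over 3 libraries, so they do not measure how far the tumours differ. Every pair of libraries differed by more than sampling noise, with chi-square values of at least 317 per degree of freedom. Counts were tested in R 4.3.3 with edgeR 4.0.16 (filterByExpr by group with a minimum count of 10 and total of 15, TMM, glmQLFit with robust settings, glmQLFTest, tumour as a block), adjusted by Benjamini-Hochberg over 15770 genes. SE is the log2 fold change divided by the square root of F, and rests largely on a spread pooled over genes. Log2 ratios per tumour used a prior count of 2. The 15 genes under the filter are given mainly as counts, some of them only by a limit on their counts. Alternatives were DESeq2 1.42.0, limma voom (limma 3.58.1), RLE and upper-quartile factors, library totals, no block, omission of each tumour, and filters that were absent or stricter (3 or more libraries with 10 counts and a mean log2 CPM of 3). Settings added after seeing the data are the F test of tumours, capitals counted as members, and TMM without ribosomal protein and mitochondrial genes. Also not planned were the counts of direction and tumour patterns, the paralogue differences, the calls kept under every omission and the gene order. The pattern shares furthest from those of all tested genes are picked from several patterns counted. The scripts were tested on simulated data. Genes and lists were chosen with earlier results of these data known. The text names every gene past the threshold, all JAK and STAT genes, the 3 of each other class with the lowest p, and others chosen after their values were seen. No sequences of these genes were used here.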

Additional observations from a re-analysis of the deposited data

How the results depend on the processing

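The calls depended on the tumours included and on scaling. Leaving out a tumour gave 1 to 2 interleukin receptor and JAK-STAT genes higher, 0 to 2 lower and a median log2 fold change of 0.11 to 0.28, and 1141 to 1396 higher and 667 to 1685 lower over all tested genes. Of the 5 calls, 4 remained without tumour 1404 and il10ra alone remained without tumour 1279 and without tumour 1314, where il1rl1 was the 1 called lower. With the replicate block removed 0 were higher and 0 lower, both among these genes (edgeR, 0 at an unadjusted p below 0.05) and over all genes (687 higher and 564 lower at an unadjusted p below 0.05), whereas DESeq2 and limma voom with the block called 5 each of the 40. The number higher was 1 with RLE factors, 1 with upper-quartile factors and 1 with the stricter filter, under which 24 of the 40 were tested and 1048 genes were higher and 904 lower in all. With library totals 8015 of all genes were higher and 277 lower, and 27 of the 40 were higher and 0 lower (edgeR, 0 lower at an unadjusted p below 0.05), with a median of 1.42. The median of the 40 minus that of all genes was 0.26 under both scalings. For the genes tested without tumours 1404, 1279 and 1314 in turn that difference was 0.29, 0.11 and 0.17. Directions turned with library totals for jak2a (0.37), jak2b (0.93), jak3 (0.9), stat5b (1.01), cish (0.51), socs1a (0.24), socs1b (0.07), socs7 (0.15), socs9 (0.95), il13ra1 (0.76), il13ra2 (0.74), il2rga (0.5) and il10rb (0.03). stat1a turned with RLE factors (-0.03), upper-quartile factors (-0.01) and DESeq2 (-0.03), stat5b with no filter (0.00) and no replicate block (0.01), and il13ra1 with no replicate block (0.01). With each tumour left out in turn the values crossed 0 for jak2b (-0.56 to 0.28), stat1a (-0.2 to 0.31), stat5b (-0.45 to 0.24), cish (-1.12 to 0.01), socs4 (-0.06 to 1.14), socs5b (-0.01 to 0.75), socs9 (-0.3 to 0.05), pias1b (-0.22 to 0.71), il12rb2 (-0.38 to 1.37), il13ra2 (-0.67 to 0.08), il21r.1 (-0.25 to 0.88) and il1rapl1a (-0.08 to 0.8). The cause of these changes was not tested. With 3 pairs, 2 residual degrees of freedom and a spread pooled over genes, differences of the size of an SE were not detectable, and of genes under the filter the depth allows counts alone.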
